A study of Rattus norvegicus with 24 samples.

Results

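Levels of 9 genes of the collagen scar matrix were described in the septum of the rat heart 28 days after cardiac ischemia-reperfusion. The 9 genes were the fibrillar collagen chains Col1a1, Col1a2 and Col3a1, the glycoproteins Postn (periostin), Fn1 (fibronectin) and Sparc (osteonectin), the cross-linking enzyme Lox (lysyl oxidase), and the small leucine-rich proteoglycans Dcn (decorin) and Lum (lumican). They were chosen by Ensembl gene ID out of 30562 annotated genes, each ID with the chromosome it should lie on. All 9 IDs lay there, and all 9 were among the 17347 genes kept after filtering on low counts. The deposited table holds no gene names, so a symbol rests on its ID and its chromosome.

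Messenger RNA of 24 Sprague-Dawley rats was sequenced, 6 rats in each of 4 groups, and no rat gave more than 1 library. All 4 groups had ischemia-reperfusion injury of the heart and received leptin, a hormone of fat cells that acts on the brain, or vehicle into a cerebral ventricle. The groups were intact brown adipose tissue (BAT, the fat that produces heat) with vehicle, intact BAT with leptin, ablation of BAT (BATx) with leptin, and sympathetic denervation of BAT (BATsx) with leptin. Ablation and denervation were studied under leptin only, so neither operation has a vehicle group of its own. The libraries hold whole septal tissue, in which fewer matrix-producing cells and less RNA per cell cannot be told apart. Markers of heart muscle, fibroblasts and other cell types were not analysed here, because the IDs could not be paired with their symbols.

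Fibrillar collagens are triple helices secreted mainly by fibroblasts. Type I collagen is built from the products of Col1a1 and Col1a2, and type III collagen from that of Col3a1. After a cardiac injury, activated fibroblasts lay down both types as scar. Fibronectin and periostin take part in the assembly of the fibres, osteonectin binds procollagen, lysyl oxidase cross-links the fibres, and decorin and lumican bind to their surface and regulate their width.

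The libraries held 71587993 to 122910706 assigned reads, of which 23.1% to 45.9% came from the mitochondrial chromosome. Libraries also differed by the rats' numbers. Between 7 high-numbered and 17 low-numbered rats 67.2% of all genes were called (edgeR, adjusted p below 0.05), in a fit that also held the groups. The high-numbered rats were 3 with vehicle, 1 with intact BAT and leptin, 1 after ablation and 2 after denervation. The labels do not say what the numbers mark. Every comparison is therefore given as designed, with 4 group means, and again with a 2-level term for this set. These same libraries set the boundary, so values with the term are not independent of it.

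Start regions show the sequence next to members that did and did not pass the tests below. RefSeq promoters on the GRCr8 assembly (250 bases before to 50 after the start) were at hand for 4 of the 9 members: Col1a2, Postn, Sparc and Lum. The first 2 sequences below belong to genes that passed for BAT ablation and the last to one that did not. Capitals mark matches on either strand to 5 short motifs. These are the CCAAT box, the TATA box with the letters TATAAA, and the GC box with the letters GGGCGG. The others are CAGAC, the element bound by SMAD factors (which act downstream of TGF-beta), and the AP-1 site with the letters TGANTCA. No 2 matches overlap. Col1a2 lies on the plus strand (chr4:33518307-33518606), Sparc on the minus strand (chr10:40038767-40039066) and Postn on the plus strand (chr2:140677811-140678110).
Col1a2: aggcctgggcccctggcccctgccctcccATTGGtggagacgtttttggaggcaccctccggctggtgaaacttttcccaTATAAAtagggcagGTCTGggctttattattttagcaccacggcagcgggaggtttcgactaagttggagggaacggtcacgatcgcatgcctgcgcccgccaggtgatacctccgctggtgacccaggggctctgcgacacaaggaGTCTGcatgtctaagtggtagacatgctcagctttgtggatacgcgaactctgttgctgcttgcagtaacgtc
Sparc: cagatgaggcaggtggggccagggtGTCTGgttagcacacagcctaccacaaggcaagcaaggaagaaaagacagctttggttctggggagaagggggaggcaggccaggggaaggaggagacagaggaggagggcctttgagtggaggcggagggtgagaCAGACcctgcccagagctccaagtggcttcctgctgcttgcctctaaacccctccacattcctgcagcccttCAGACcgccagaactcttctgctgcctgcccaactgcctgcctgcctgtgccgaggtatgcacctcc
Postn: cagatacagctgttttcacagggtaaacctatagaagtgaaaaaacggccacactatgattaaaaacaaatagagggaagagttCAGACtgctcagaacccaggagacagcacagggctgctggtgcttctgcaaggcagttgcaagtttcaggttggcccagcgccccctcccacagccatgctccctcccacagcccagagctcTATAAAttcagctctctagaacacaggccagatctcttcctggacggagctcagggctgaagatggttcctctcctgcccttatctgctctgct
All 4 promoters held CAGAC, and 50.1% of 33469 promoters of the same length did. Col1a2 and Lum held CCAAT (37.5% of all promoters), Col1a2 and Postn held TATAAA (14.2%), and none of the 4 held GGGCGG (33.1%) or TGANTCA (7.33%). TATAAA began at position -170 from the start in Col1a2 and at -44 in Postn, and whether either acts as a TATA box was not tested. CAGAC occurred 2 times in Col1a2, 3 times in Sparc, 3 times in Lum and 1 time in Postn. These are matches of letters in 1 window.

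On the mRatBN7.2 assembly used by the count table, Col1a1 (ENSRNOG00000003897) spans chr10:79883622-79900624, Col1a2 (ENSRNOG00000011292) chr4:32563381-32598867 and Col3a1 (ENSRNOG00000003357) chr9:47374593-47410547, all on the plus strand. Postn (ENSRNOG00000012660) spans chr2:138527696-138559099 on the plus strand. Fn1 (ENSRNOG00000014288, chr9:73196044-73264678) and Sparc (ENSRNOG00000012840, chr10:39516406-39538396) lie on the minus strand. Dcn (ENSRNOG00000004554, chr7:32281252-32321270) and Lum (ENSRNOG00000004610, chr7:32358614-32365793) are plus-strand neighbours, 37343 bp apart with no annotated gene between them. Lox (ENSRNOG00000014426, chr18:45967343-46041477, minus strand) has an exonic length of 1783 bp, of which 133 bp are shared with exons of a gene on the opposite strand. Fn1 shares 44 of 8332 exonic bp in the same way, and the other 7 members share none. Reads were counted without strand, so those shared bases cannot be assigned.

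Per exonic length, Sparc was the most abundant member and Lox the least. The mean over 24 libraries was 747 CPM per kb (CPM, reads scaled to the TMM-adjusted library total) for Sparc, 340 for Dcn, 336 for Col3a1, 129 for Col1a2 and 89.7 for Col1a1. It was 31.98 CPM per kb for Postn, 20.8 for Fn1, 20.5 for Lum and 1.94 for Lox. Sparc stood above Dcn in 23 of 24 libraries, Col3a1 above Col1a2 in 24 of 24, and Col1a2 above Col1a1 in 24 of 24. Dcn and Col3a1 were not separated (Dcn higher in 15 of 24), nor were Postn and Fn1 (Postn higher in 15) or Fn1 and Lum (Fn1 higher in 13). The counts behind Lox were 56 to 893 reads per library, against 91352 to 515450 for Sparc, so Lox carried the largest counting error.

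**Figure D1:**
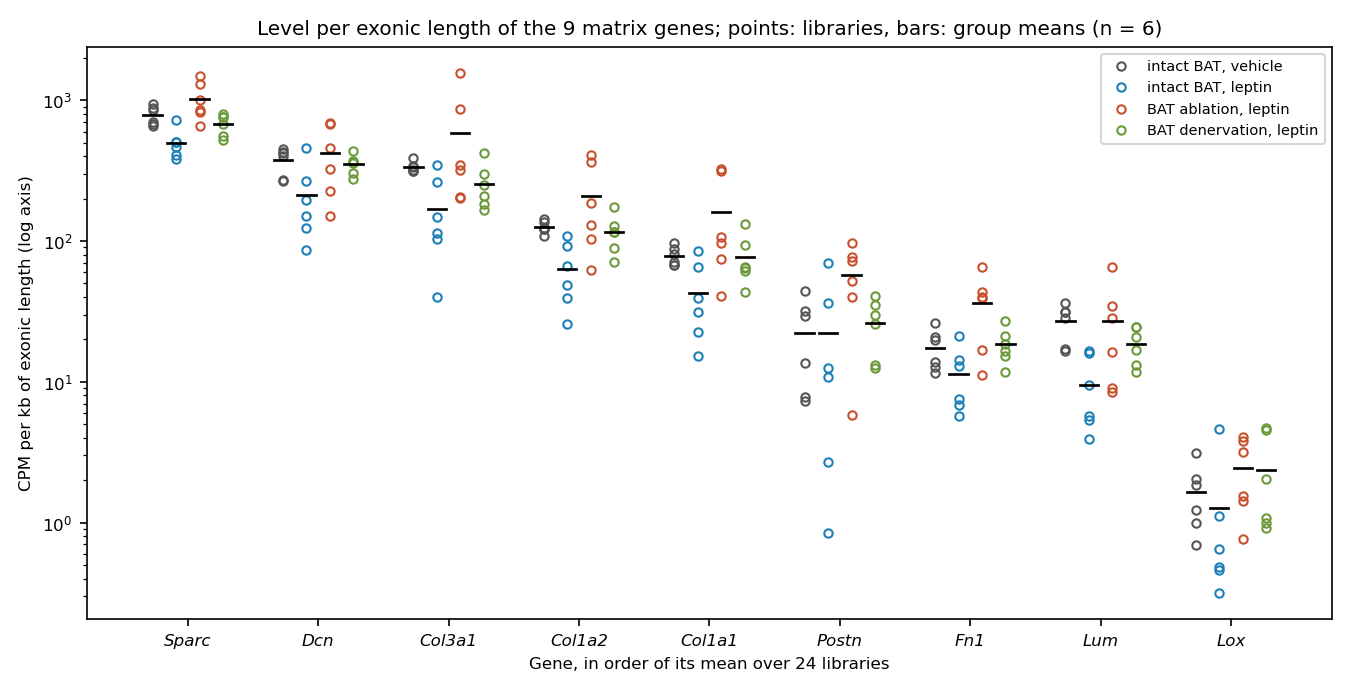
Level of each gene per kb of exonic length (log axis) in every library, by group, with bars at the group means of 6 libraries. Genes run from Sparc at a mean of 747 CPM per kb to Lox at 1.94, and Dcn and Col3a1 lie side by side.

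The 9 genes together took 0.879% ± 0.216 (SD, n = 6) of the nuclear reads with vehicle, 0.537% ± 0.216 with intact BAT and leptin, 1.46% ± 0.885 after BAT ablation and 0.773% ± 0.241 after BAT denervation. The single libraries ran from 0.270% to 2.87%. The lowest share was that of leptin replicate 6, which also held the lowest level of 6 of the 9 genes. The highest shares were those of ablation replicates 3 (2.87%) and 1 (2.23%), which between them held the highest level of 8 genes.

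The collagen chains were tightly grouped with vehicle and widely spread in the other 3 groups. With vehicle the coefficient of variation was 15.2% for Col1a1, 9.79% for Col1a2 and 8.00% for Col3a1. With intact BAT and leptin it was 62.2%, 49.8% and 66.7%, after ablation 79.1%, 68.9% and 92.4%, and after denervation 41.0%, 30.98% and 37.8%. These spreads were not tested against each other. The vehicle group holds 3 rats of each number set, and its narrow range of collagen levels spans both. Postn did not share the pattern: its coefficient of variation was 67.6% with vehicle, and its 3 highest vehicle values (104, 112.9 and 156.95 CPM) came from the low-numbered rats, its 3 lowest (25.7 to 48.0 CPM) from the high-numbered ones.

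**Figure D2:**
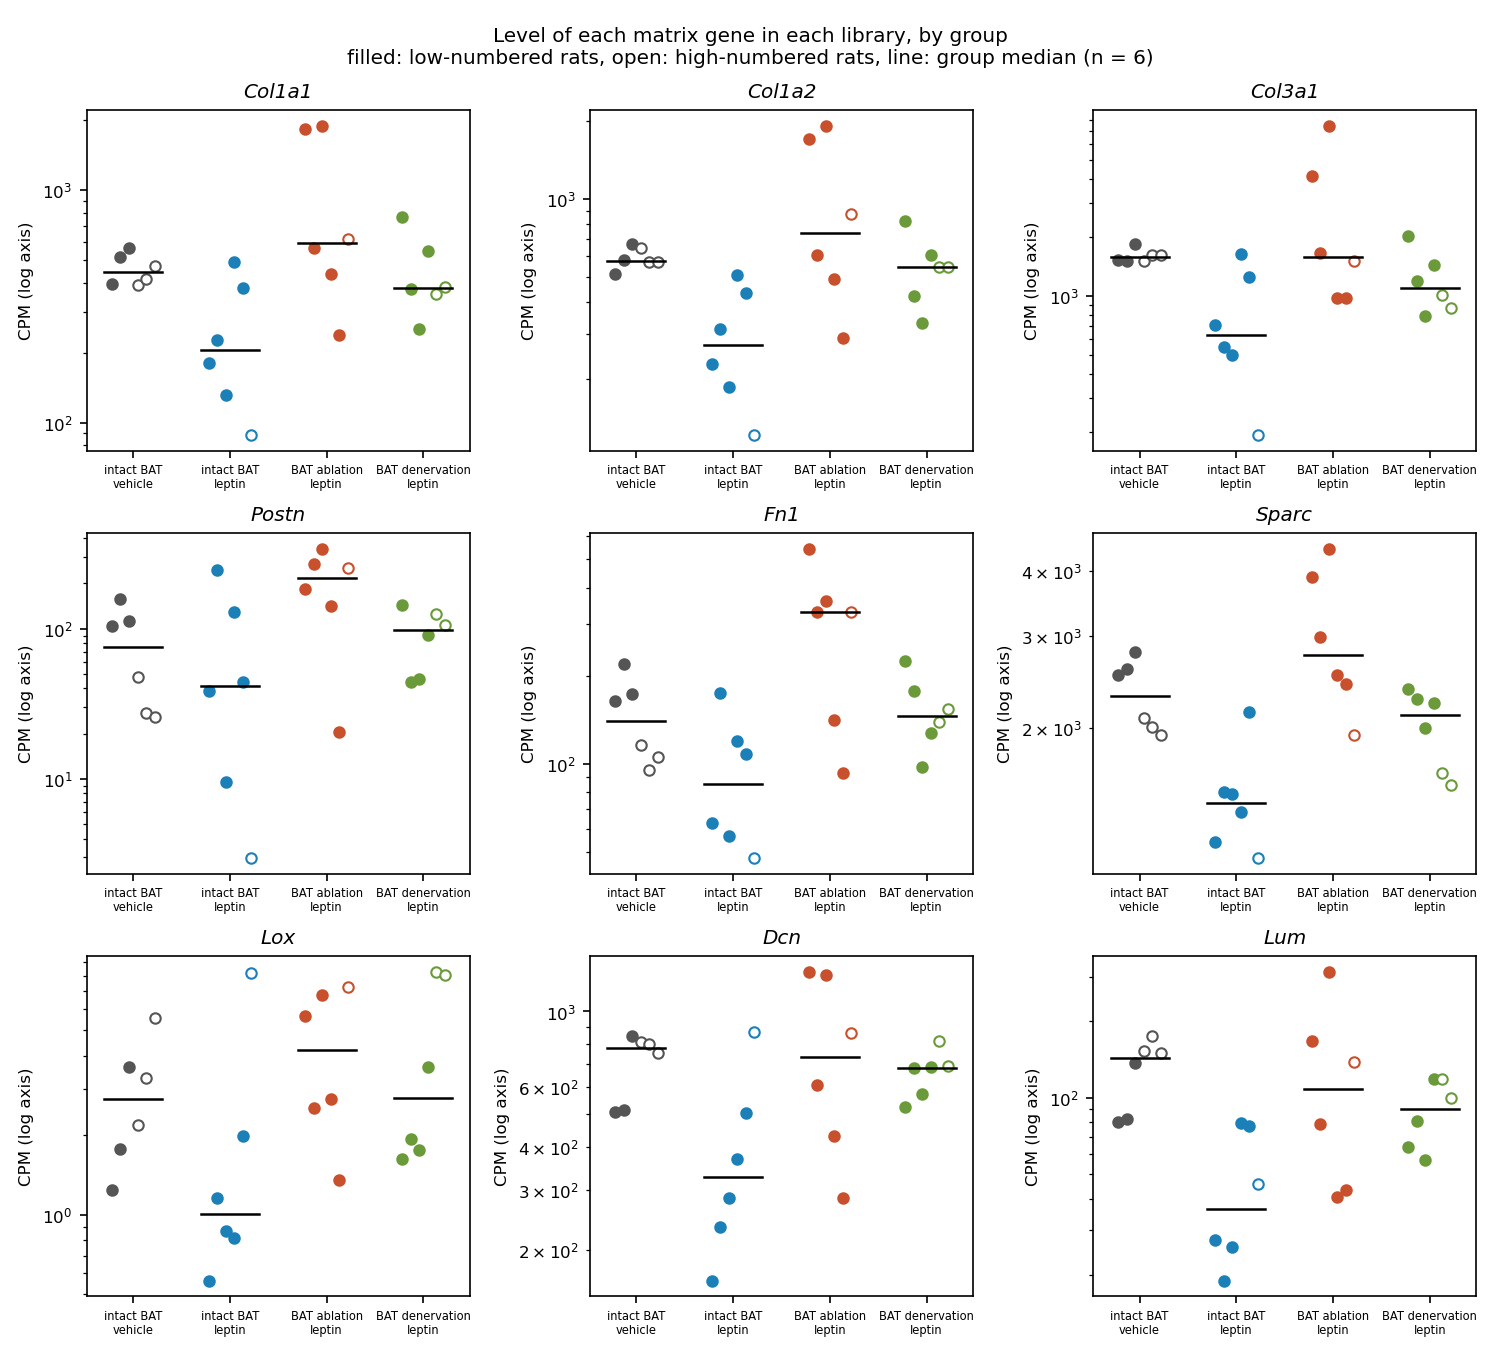
Level of each gene in CPM (log axes) in every library of the 4 groups, with lines at the group medians of 6. Filled points are low-numbered and open points high-numbered rats. Col1a2 and Lum are the members whose leptin and vehicle points do not overlap with intact BAT.

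The first comparison asked how the scar genes stood with leptin against vehicle when BAT was intact. All 9 lay lower with leptin, by a median log2 difference of -0.81 against -0.03 over all genes, of which 48.1% lay above 0. The members rose and fell together across the low-numbered rats, as given below, so their 9 signs are not separate observations. As designed, 0 of 9 passed the test (edgeR quasi-likelihood, adjusted p below 0.05). In all, 0.674% of the 17347 genes passed, 0.161% as lower. At an unadjusted p below 0.05 stood 5 of the members (Col1a2, Col3a1, Sparc, Dcn and Lum) and 23.4% of all genes. With the rat-number term 1 of 9 passed, Sparc, against 6.13% of all genes called and 1.97% called lower. DESeq2 called Sparc and Lum (6.41% of all genes), and limma-voom all but Col1a1, Postn and Fn1, in a fit that called 60.7% of all genes. With the length gradient described below beside the term, or a linear rat number in its place, Sparc alone passed (2.47% and 6.16% of all genes).

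Among the collagens, Col1a1 had 88.2 CPM in the lowest leptin library, 204 at the median and 493 in the highest, against 391, 443 and 563 with vehicle. It differed by -0.88 log2 units (SE 0.45, edgeR adjusted p = 0.232). Of the 6 leptin libraries 5 lay below every vehicle library, and leptin replicate 4 lay among them. Col1a2 ran from 122 through a median of 271 to 507 CPM with leptin and from 511 through 574 to 672 CPM with vehicle. Its groups did not overlap, by a margin of a few CPM, and 0.663% of all genes were lower with leptin without overlap. It differed by -0.99 log2 units (SE 0.38, edgeR adjusted p = 0.138), and -1.10 (SE 0.39, edgeR adjusted p = 0.0853) with the rat-number term. Col3a1 ran from 193 through 632 to 1650 CPM with leptin and from 1505 through 1578 to 1848 CPM with vehicle, a difference of -0.99 log2 units (SE 0.48, edgeR adjusted p = 0.210). Leptin replicate 4 was again the leptin library inside the vehicle range.

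Of the glycoproteins, Sparc showed the smallest spread. It ran from 1126 through 1438 to 2147 CPM with leptin and from 1943 through 2306 to 2796 CPM with vehicle, a difference of -0.66 log2 units (SE 0.21, edgeR adjusted p = 0.0935). Leptin replicate 5 was the leptin library that reached the vehicle range. With the rat-number term Sparc fell by 0.82 on the log2 scale (SE 0.16, edgeR adjusted p = 0.0103). It stayed called with that term when each of the 12 libraries was left out (edgeR adjusted p 0.00259 to 0.0474). The shares of all genes called in these 12 fits are not given here, so the calls of Sparc have no background beside them. In the low-numbered rats alone, where 5 leptin libraries (1209 to 2147 CPM) lay below 3 vehicle libraries (2524 to 2796 CPM) without overlap, the value was -0.77 (SE 0.23) and did not pass (edgeR adjusted p = 0.143). That fit called 0 of 17890 genes. In these rats 4 of the 9 (Col1a2, Sparc, Dcn and Lum) were lower with leptin without overlap, as were 6.27% of all genes, and for Col1a2, Dcn and Lum the nearest libraries nearly touched. Fn1 ran from 47.7 through 85.4 to 175 CPM with leptin and from 95.5 through 140 to 219 CPM with vehicle, overlapping in part (-0.62, SE 0.36, edgeR adjusted p = 0.298). Postn ranged from 2.97 through 41.4 to 247 CPM with leptin, around the whole vehicle range of 25.7 through 76.1 to 156.95 CPM, and its log2 difference of -0.01 (SE 0.73) changed sign with the scaling and the tool.

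Lox had a median of 1.01 CPM with leptin (0.562 to 8.22) and 2.74 CPM with vehicle (1.24 to 5.56), a difference of -0.38 log2 units (SE 0.61, edgeR adjusted p = 0.715). The 8.22 CPM belong to leptin replicate 6, the high-numbered rat of that group, and the other 5 leptin libraries lay at or under 1.98 CPM. Without that library Lox, Dcn and Lum passed, and 4454 of 17548 genes (25.4%) were called. The proteoglycans lay lower by a log2 difference of -0.81 for Dcn (SE 0.36, edgeR adjusted p = 0.184) and -1.502 for Lum (SE 0.44, edgeR adjusted p = 0.0754), the largest difference among the 9. Lum ran from 18.9 through 36.5 to 79.7 CPM with leptin and from 79.9 through 144 to 175.9 CPM with vehicle, so the groups did not overlap, though the nearest libraries, at 79.7 and 79.9 CPM, nearly touched. Dcn ran from 162 through 326 to 870 CPM with leptin and from 506 through 779 to 845 CPM with vehicle. Leptin replicate 6, lowest of all libraries for the collagens, held the highest Dcn value of both groups.

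**Figure D3:**
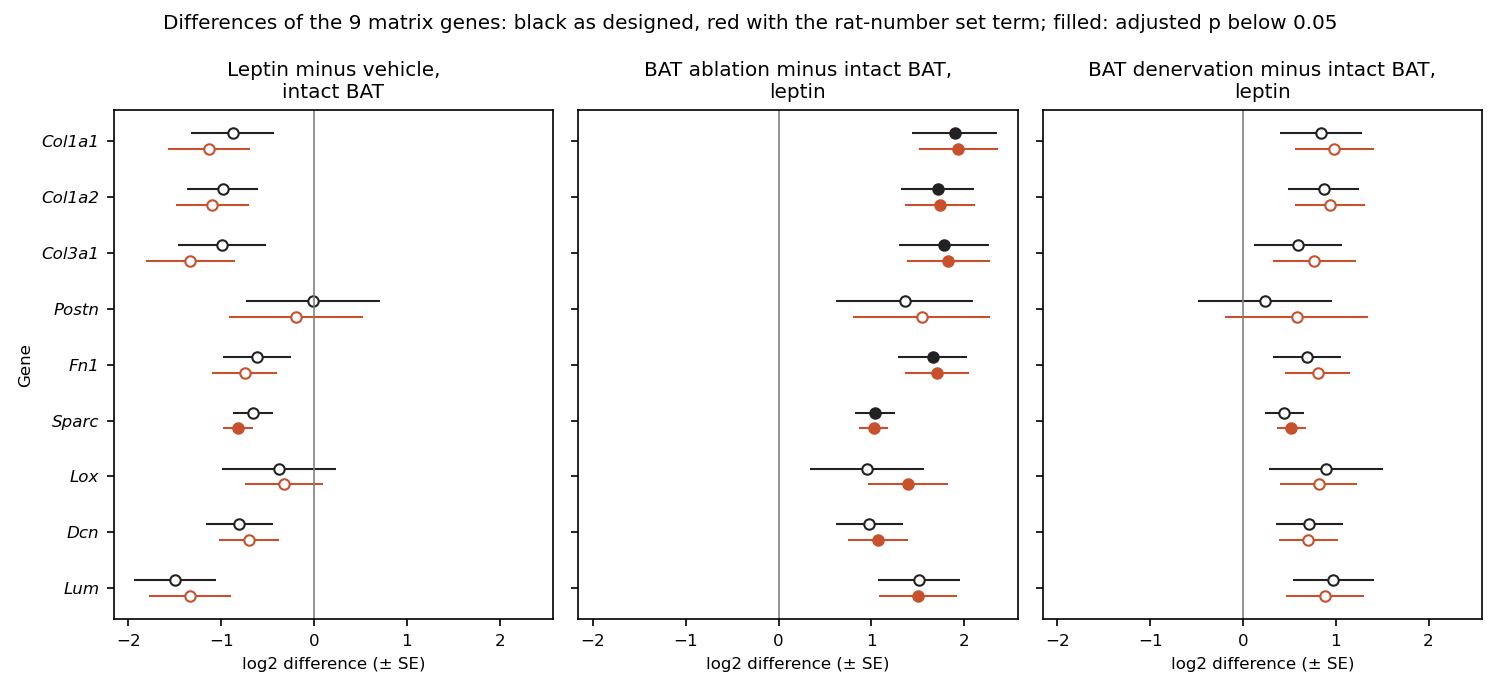
Log2 differences (horizontal axis, bars ± SE) of each gene in 3 comparisons, in black as designed and in red with the rat-number term, with filled points at an edgeR adjusted p below 0.05. All 9 lie below 0 for leptin and above 0 for ablation and denervation, with Postn nearest to 0 for leptin.

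The second comparison asked how the same genes stood after BAT ablation against intact BAT, both with leptin. Of the 9, 5 rose and 0 fell: the 3 collagen chains, Fn1 and Sparc. Over all genes 3.03% were called, 1.86% as higher. All 9 members lay above 0, with a median log2 difference of 1.51 against -0.02 over all genes, of which 47.9% lay above 0. The intact libraries with leptin enter both comparisons, so opposite signs in the 2 comparisons are not independent of each other.

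Col1a1 ran from 238 through a median of 591 to 1896 CPM after ablation, against 88.2, 204 and 493 CPM with intact BAT. It rose by a difference of 1.90 log2 units (SE 0.46, edgeR adjusted p = 0.0303), a 3.73-fold difference. Of the ablation libraries 4 lay above every intact library, and replicates 1 and 3, at 1844 and 1896 CPM, stood far above the other 4 (238 to 619 CPM). Col1a2 ran from 290 through 739 to 1920 CPM and rose by 1.72 (SE 0.39, edgeR adjusted p = 0.0255), with the same 2 libraries at 1704 and 1920 CPM. Col3a1 ran from 972 through 1593 to 7485 CPM and rose by 1.79 (SE 0.49, edgeR adjusted p = 0.0453), replicates 1 and 3 lying at 4137 and 7485 CPM. The other 4 ablation libraries held 972 to 1664 CPM of Col3a1, of which 2 lay within the vehicle range (1505 to 1848 CPM) and 2 below it.

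Fn1 ran from 93.4 through 331 to 543 CPM after ablation and rose by 1.66 (SE 0.37, edgeR adjusted p = 0.0248), with 4 of 6 libraries above every intact one. Its high levels were less confined to the pair of libraries with most collagen. Replicates 2 and 6 held 330.3 and 331 CPM of Fn1 beside 543 and 361 CPM in replicates 1 and 3. Even so, Fn1 did not pass when ablation replicate 1 or 3 was left out, as given below. Sparc ran from 1939 through 2763 to 4416 CPM and rose by 1.04 (SE 0.21, edgeR adjusted p = 0.0204), the smallest of the called differences and the one with the smallest error. In the low-numbered rats 5 ablation libraries (2432 to 4416 CPM) lay above 5 intact ones (1209 to 2147 CPM) without overlap, as did 2.08% of all genes in that direction. Postn had a median of 219 CPM after ablation (20.5 to 341) and 41.4 CPM in the intact group, and its difference of 1.36 (SE 0.74) did not pass (edgeR adjusted p = 0.349).

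Lox, Dcn and Lum did not pass as designed. Their log2 differences were 0.95 (SE 0.62, edgeR adjusted p = 0.454), 0.98 (SE 0.36, edgeR adjusted p = 0.140) and 1.51 (SE 0.44, edgeR adjusted p = 0.0617). Lum ran from 40.6 through 108 to 315 CPM after ablation and Dcn from 283 through 735 to 1309 CPM, both overlapping the intact group. Without leptin replicate 6, the library with 8.22 CPM of Lox, the Lox difference was 2.02 and passed (edgeR adjusted p = 0.0324), and low-numbered rats alone gave 1.82 (SE 0.45, edgeR adjusted p = 0.0227). With the rat-number term 8 of 9 passed, all but Postn (edgeR adjusted p = 0.144), against 18.6% of all genes called and 9.64% called higher. In that fit Lox differed by 1.40 (SE 0.43, edgeR adjusted p = 0.0261), Dcn by 1.07 (SE 0.32, edgeR adjusted p = 0.0244) and Lum by 1.51 (SE 0.42, edgeR adjusted p = 0.0162). With low-numbered rats only, 5 in each group, 7 of 9 passed, all but Postn and Lum, against 11.4% of all genes called and 6.04% called higher. DESeq2 called 6, adding Lum (5.28% of all genes), limma-voom 8 (17.4%), and a linear rat number gave 7 (23.3%).

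Whether the ablation differences passed depended on single libraries. As designed, 0 of 9 passed without ablation replicate 1 or 3 or leptin replicate 1, 1 without leptin replicate 2 (Fn1) or 3 (Sparc), 2 without ablation replicate 2 (Col1a2 and Sparc), and 5 to 7 in the other 6 fits that left out a library. The first 6 of these fits called 0.0457%, 0.0399%, 0.0628%, 0.234%, 1.35% and 0.787% of all genes. The shares in the other 6 are not given here. In all 12 fits the direction of all 9 stayed the same. The differences ran from 1.57 to 2.21 for Col1a1, 1.41 to 1.93 for Col1a2, 1.41 to 1.93 for Fn1, 0.90 to 1.18 for Sparc and 1.198 (without ablation replicate 3) to 2.12 for Col3a1. With the rat-number term 5 to 8 passed whichever library was left out, and Col1a1, Col1a2, Col3a1, Fn1 and Sparc passed in all 12 fits. The term called 18.6% of all genes with 24 libraries, and the shares in these 12 fits are not given here. With only the 12 libraries of the 2 groups in the model 0 of 9 passed, as did 0 of 16483 genes. Ablation replicates 1 and 3 also had the lowest length gradient of all libraries (-0.393 and -0.425, where the gradient is the centred log2 level of long minus short transcripts). With a term for that gradient beside the rat-number term 2 of 9 passed, Fn1 at 1.45 (SE 0.41, edgeR adjusted p = 0.0342) and Sparc at 0.85 (SE 0.14, edgeR adjusted p = 0.00483), against 7.47% of all genes. In that fit Col1a1 differed by 1.44 (SE 0.50), Col1a2 by 1.28 (SE 0.43) and Col3a1 by 1.27 (SE 0.55), and Lum moved from 1.51 to 0.88 (SE 0.48). A replicate block gave 2 called members for leptin, 5 for ablation and 0 for denervation, beside 21.0%, 5.89% and 2.95% of all genes. The part of the gradient in the collagen values was not tested beyond the fit with its term.

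**Figure D4:**
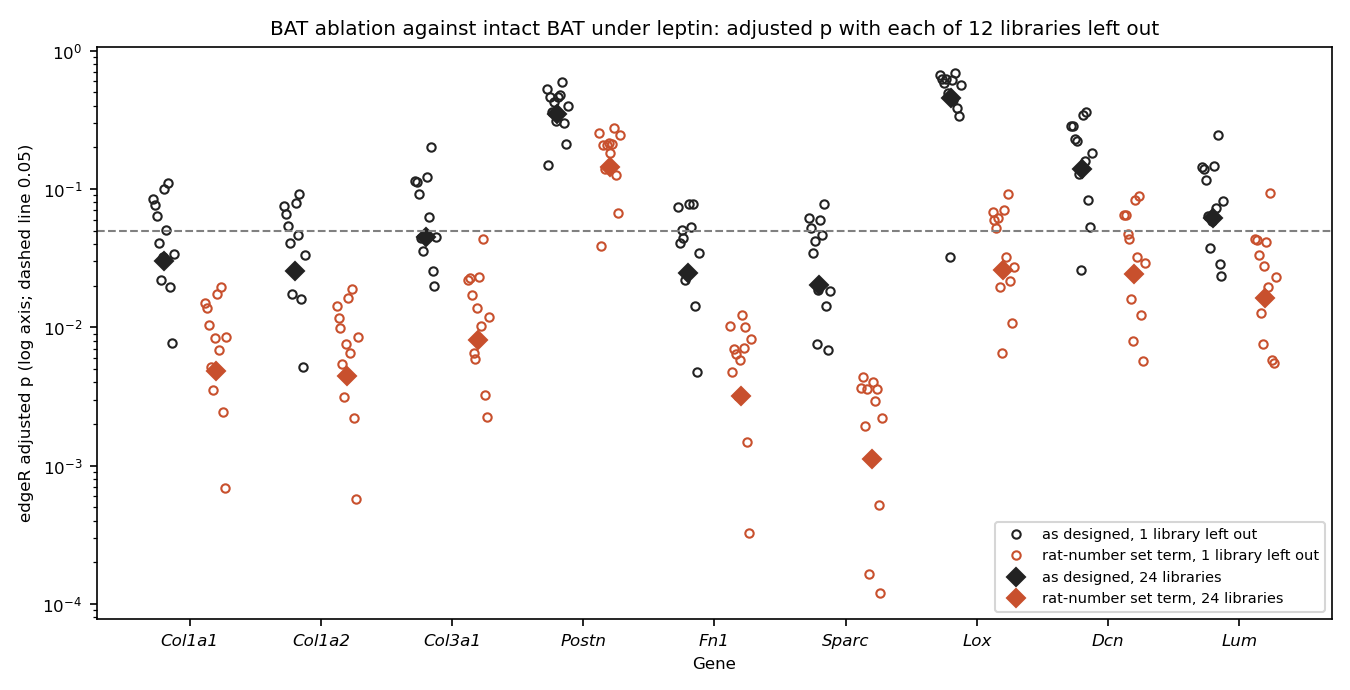
BAT ablation against intact BAT under leptin: edgeR adjusted p (log axis, dashed line at 0.05) of each gene with 24 libraries (diamonds) and with each of 12 libraries left out (circles), in black as designed and in red with the rat-number term. The red circles of Col1a1, Col1a2, Col3a1, Fn1 and Sparc all lie under the line, while their black circles lie on both sides of it.

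The third comparison asked how the genes stood after sympathetic denervation of BAT against intact BAT with leptin. As designed edgeR called 0 of 9, as it did 0.0% of all genes, while 16.3% of all genes had an unadjusted p below 0.05, as did Col1a2, Sparc and Lum. DESeq2 called 0 of the 9 and 433 genes in all (1.8%), limma-voom called Sparc, Dcn and Lum (22.8% of all genes), and without leptin replicate 6 edgeR called Lox (3.69%). The 9 genes all lay above 0, with a median log2 difference of 0.72 against 0.02 over all genes, of which 51.3% did.

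Col1a1 ran from 254 through 380 to 771 CPM after denervation (0.84, SE 0.45, edgeR adjusted p = 0.350). Col1a2 ran from 330.2 through 544 to 823 CPM (0.87, SE 0.38, edgeR adjusted p = 0.268), and Col3a1 from 790 through 1100 to 2035 CPM (0.60, SE 0.47, edgeR adjusted p = 0.535). In all 3 the highest value was that of denervation replicate 1. Fn1 had a median of 146 CPM (97.9 to 225) and a difference of 0.69 log2 units (SE 0.37, edgeR adjusted p = 0.348), Postn a median of 98.4 CPM (44.4 to 143) and 0.24 (SE 0.73), and Lox a median of 2.77 CPM (1.62 to 8.31) and 0.90 (SE 0.62). Its 2 high-numbered rats held 8.31 and 8.09 CPM of Lox, near the 8.22 CPM of leptin replicate 6, and the other 4 held 1.62 to 3.61 CPM.

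Sparc ran from 1554 through 2119 to 2372 CPM after denervation, a difference of 0.45 log2 units (SE 0.21, edgeR adjusted p = 0.300). With the rat-number term it rose by 0.52 (SE 0.16, edgeR adjusted p = 0.0469) as the only member called, beside 6.65% of all genes (2.43% as higher). That call was kept in 2 of 12 fits that left out a library, those without leptin replicate 5 or 6 (edgeR adjusted p 0.0133 to 0.124 over the 12). The shares of all genes called in these 12 fits are not given here. Dcn ran from 523 through 684 to 817 CPM (0.72, SE 0.36, edgeR adjusted p = 0.329) and Lum from 56.7 through 90.3 to 119 CPM (0.97, SE 0.44, edgeR adjusted p = 0.275). In the low-numbered rats the 4 denervation libraries (523 to 686 CPM of Dcn) lay above the 5 intact ones (162 to 504 CPM) without overlap, as did 3.32% of all genes. Leptin replicate 6, high-numbered and left out there, held 870 CPM of Dcn.

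The operated groups were also set beside intact BAT with vehicle. After ablation all 9 members lay above vehicle, by a median log2 difference of 0.73 against 0.03 over all genes, of which 52.5% did. Of the 9, 0 passed. No gene passed in this comparison by edgeR (0.0%), 10.9% had an unadjusted p below 0.05, and DESeq2 called 20 genes (0.0833%). Limma-voom called Postn, Fn1 and Sparc (55.7% of all genes), and a linear rat number Col1a1, Postn and Fn1 (39.2%). The largest values were those of Postn (1.35, SE 0.74), Fn1 (1.04, SE 0.37) and Col1a1 (1.02, SE 0.45), while Dcn (0.17, SE 0.36) and Lum (0.01, SE 0.43) lay near 0. After denervation the members lay on both sides of vehicle, 3 above and 6 below, with a median of -0.09, from -0.53 for Lum (SE 0.43) to 0.52 for Lox (SE 0.61). Again 0 of 9 and 0.0% of all genes passed, with 2.01% at an unadjusted p below 0.05 and 0 by DESeq2. In both comparisons with vehicle 0 of 9 passed with the rat-number term, with medians of 0.64 after ablation and -0.15 after denervation. The share of all genes called with the term is not given here for either, so 0 of 9 cannot be read as a result about the members. The term moved Lox after ablation from 0.57 to 1.07 (SE 0.43, edgeR adjusted p = 0.530) and Sparc from 0.38 to 0.21 (SE 0.16, edgeR adjusted p = 0.717).

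Ablation and denervation were compared directly, since a call after one operation and not after the other does not show that they differ. All 9 members lay higher after ablation, by a median of 0.85 against 0.01 over all genes, of which 51.1% did. Of the 9, 0 passed, with 0 genes in all by edgeR or DESeq2 and 4.48% at an unadjusted p below 0.05. The differences were 1.06 for Col1a1 (SE 0.45), 0.85 for Col1a2 (SE 0.38), 1.19 for Col3a1 (SE 0.48), 0.97 for Fn1 (SE 0.37) and 0.59 for Sparc (SE 0.21), with an edgeR adjusted p of 0.890 for each. Lox differed by 0.05 (SE 0.61), Dcn by 0.26 (SE 0.36), Lum by 0.54 (SE 0.43) and Postn by 1.12 (SE 0.73). Adding the rat-number term left 0 of 9 called, with a median of 0.80, and Lox moved from 0.05 to 0.58 (SE 0.42, edgeR adjusted p = 0.712). The share of all genes called with the term is not given here, so that 0 of 9 has no background beside it. With a linear rat number Col1a1, Col3a1, Fn1 and Sparc passed, beside 19.6% of all genes. These 3 comparisons share libraries with each other and with the first 3.

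Lox and Sparc differed in mean between the rat-number sets, and their ranges overlapped. Lox was higher in the 7 high-numbered rats (2.19 to 8.31 CPM) than in the 17 others (0.562 to 6.77 CPM), by a log2 difference of 1.62 in the fit with the set term (SE 0.32, edgeR adjusted p = 9.1e-05). Sparc was lower in the high-numbered rats (1126 to 2087 CPM against 1209 to 4416 CPM), by a difference of -0.49 log2 units (SE 0.13, edgeR adjusted p = 0.00194). The other 7 did not pass, in a comparison where 67.2% of all genes did, and Dcn came nearest (0.55, SE 0.25, edgeR adjusted p = 0.0558). Dcn held 693 to 870 CPM in all 7 high-numbered rats, whatever their group, against 162 to 1309 CPM in the 17 low-numbered ones.

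**Figure D5:**
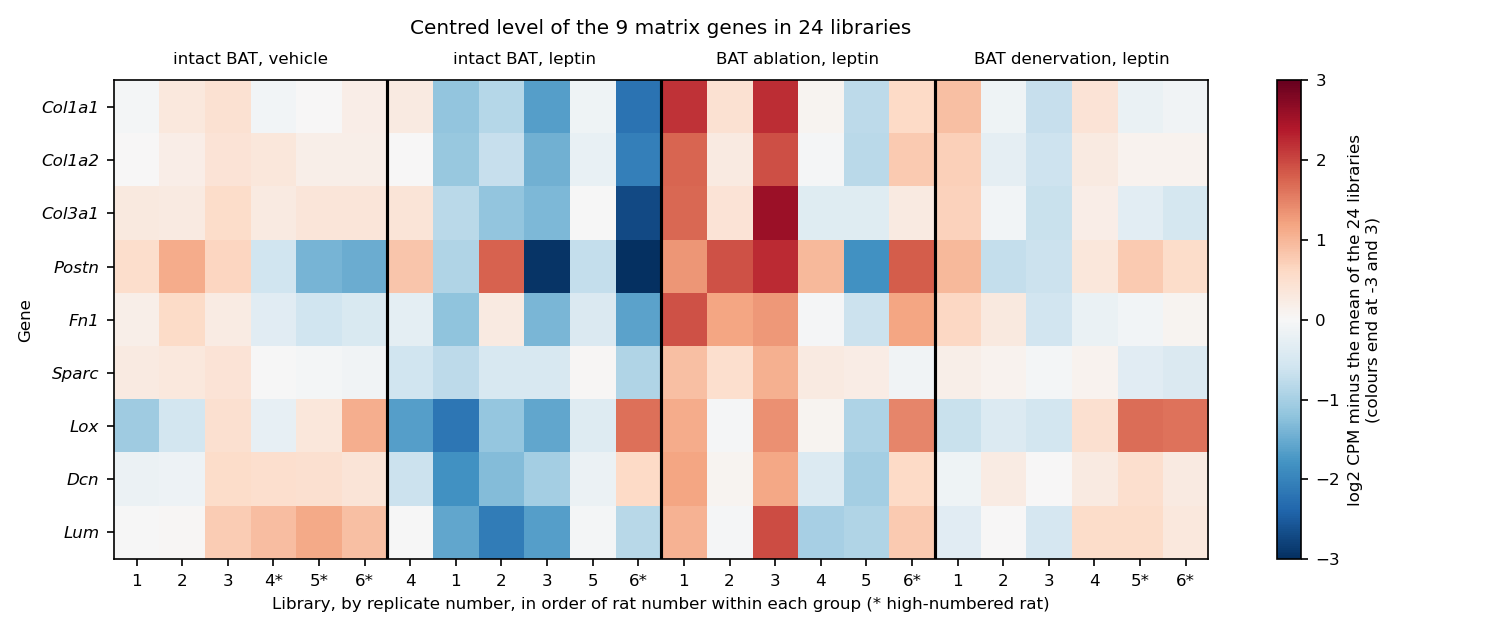
Level of the 9 genes (rows) in 24 libraries (columns, by group and in order of rat number, high-numbered rats starred), as log2 CPM minus the mean of each gene over all libraries. Ablation replicates 1 and 3 are high in every row, and leptin replicate 6 is low in every row but Lox and Dcn.

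Within the 17 low-numbered rats the members rose and fell together across libraries. These points share the group differences above and the scaling of each library. Over the 36 pairs of genes Pearson's r of log2 CPM had a median of 0.81 and ran from 0.47 to 1.00, and 34 pairs had an adjusted permutation p below 0.05 (100000 permutations, Benjamini-Hochberg over 36 pairs). Libraries were permuted freely across the groups, so this p does not separate a tie between rats from shared group differences or scaling. The share of other gene pairs that would pass was not computed, so 34 of 36 is not shown to be particular to these genes. The 2 chains of type I collagen, Col1a1 and Col1a2, were the closest pair, with r = 0.996 and Spearman's rho = 0.988 (n = 17, permutation p = 1e-05 for each, the smallest that this number of permutations can give, adjusted p = 4e-05 and 0.00012), and r = 0.992 without the 2 libraries farthest from the median of Col1a1. Col1a1 and Col3a1 had r = 0.960 and rho = 0.939, and r = 0.930 without 2 libraries. The 2 proteoglycans, Dcn and Lum, had r = 0.911 and rho = 0.868 (permutation p = 1e-05 and 2e-05), and r = 0.919 without 2 libraries. Postn was the least tied to the rest: with Dcn it had r = 0.481 and rho = 0.436 (permutation p = 0.0508 and 0.081) and with Lum r = 0.474 and rho = 0.397 (permutation p = 0.054 and 0.115), and neither pair passed. Its closest member was Fn1, at r = 0.813 and rho = 0.860, and r = 0.756 without 2 libraries.

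In the 7 high-numbered rats r ran from -0.66 to 0.99 over the 36 pairs and 4 pairs passed by Pearson's r, none of them by rho. Leptin replicate 6 lies far below the other 6 there for the collagens. For Col1a1 and Col1a2, r was 0.989 with all 7 and 0.144 without the 2 libraries farthest from the median, so in that set the relation rests on those libraries.

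The proportion of the type I chains moved less than their level. The ratio of Col1a1 to Col1a2 per exonic length had a mean of 0.663 over 24 libraries and ran from 0.490 to 0.871, while Col1a1 itself differed 21.5-fold between its extreme libraries. Its mean was 0.626 ± 0.0800 (SD, n = 6) with vehicle, 0.643 ± 0.0845 with leptin, 0.728 ± 0.104 after ablation and 0.652 ± 0.0940 after denervation. Low-numbered rats had a mean ratio of 0.700 ± 0.0795 (SD, n = 17), and high-numbered rats one of 0.571 ± 0.0549 (SD, n = 7). The ratio of Col3a1 to Col1a1 ran from 2.66 to 4.99 with a mean of 3.79. That of Postn to Col1a1 ran from 0.0555 to 1.79, the widest of the 4 ratios computed. None of these ratios was tested between groups.

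Genes outside the 9 with the most similar pattern were found by the correlation of their log2 CPM with the mean of the centred log2 CPM of the members, over 24 libraries. The 10 most alike had r between 0.924 and 0.958, above that of the members themselves with their own mean for all but Col1a1 and Col1a2 (0.546 for Lox to 0.975 for Col1a2). The first was ENSRNOG00000055089 (chr5:68063618-68241909, plus strand) at r = 0.958, and the second ENSRNOG00000042975 (chr11:43713782-43799526, plus strand) at r = 0.944. After ablation they differed from intact BAT with leptin by log2 values of 0.99 (SE 0.22, edgeR adjusted p = 0.0246) and 1.11 (SE 0.29, edgeR adjusted p = 0.042). All 10 were called higher there, which their choice by likeness to these members favours. When likeness was measured after removing the means of group and rat-number set, 1 of the 10 stayed among the 10 most alike. All 10 still had r between 0.872 and 0.966 then, so their places in the list changed while the likeness remained.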

How the data were processed

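The 24 septal libraries were read from both ends, per the labels. The authors deposited whole-number read counts per gene. Per the submitters' processing notes STAR 2.7.10a, featureCounts 2.0.2, DESeq2 and R 4.4.1 were used, and per the file header featureCounts 2.0.6 on Ensembl 113 of mRatBN7.2, without strand. Counts of 2 (19013 cells) outnumber counts of 1 (5161 cells), so a fragment appears to enter as 2 reads. 5 further count columns, of no listed sample, stayed out.

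From these counts, levels were computed as CPM with TMM-scaled library sizes, and log2 CPM with a prior count of 2. filterByExpr set the genes kept. The test was edgeR 4.0.16's robust quasi-likelihood (R 4.3.3) with 24 libraries in 1 model and Benjamini-Hochberg adjustment over 17347 genes at 0.05. An SE is the log2 difference divided by the square root of F. Alternatives were DESeq2 1.42.0, limma 3.58.1 (voom with sample weights), other scalings and filters, halved counts, the rat-number set with and without a length gradient (median centred log2 CPM of the longest minus the shortest of 5 length classes), a linear rat number, low-numbered rats, only 2 groups, a replicate block and each library left out. Correlations used scipy 1.17.1.

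All 9 members are named in every comparison. The members, lists and rat-number sets were chosen with earlier results of these data known. Leaving out libraries with the rat-number term was added after seeing the data. 15 lists of 128 symbols (5 pathway, 10 marker) were not run, because the reference table paired 0 IDs with a symbol.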

Additional observations from a re-analysis of the deposited data

Results flagged for a closer look

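Of 36 sets of 6 libraries checked (9 genes in 4 groups), 3 held a library far from the other 5, and chance flags about 1 in 20 such sets. Col3a1, a chain of type III collagen, had 1848 CPM in vehicle replicate 3, against a group median of 1578 CPM. Sparc had 2147 CPM in leptin replicate 5 (intact BAT), against a median of 1438 CPM. Lox had 8.22 CPM in leptin replicate 6, against a median of 1.01 CPM, and that library is the single high-numbered rat of its group. The 3 high-numbered rats with an operated BAT held 7.25, 8.09 and 8.31 CPM of Lox. The 3 high-numbered rats with vehicle held 2.19, 3.29 and 5.56 CPM, within the range of the low-numbered rats (0.562 to 6.77 CPM).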

How the results depend on the processing

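The number of members called moved as follows. For leptin against vehicle (0 as designed) it was 2 with DESeq2 (Sparc and Lum), 6 with limma-voom and 1 (Sparc) with the rat-number term, with that term and the length gradient, and with a linear rat number. For ablation against intact BAT (5) it was 8 with limma-voom and 8 with the rat-number term, 2 with the term and the gradient, and 0 with only the 2 groups in the model. Over the 12 alternatives other than left-out libraries Col3a1 kept its call in 8, Col1a1 and Col1a2 in 10, and Fn1 and Sparc in 11. Not all of these fits have a share of all genes given here. For denervation against intact BAT (0) the number called was 3 with limma-voom and 1 with the term. With a linear rat number it was 3 for ablation against vehicle (0) and 4 for ablation against denervation (0), and limma-voom gave 3 for ablation against vehicle. The cause of these moves was not tested. With each library left out the counts ran from 0 to 3, 0 to 7 and 0 to 1 in the first 3 comparisons and were 0 in the others, and with the rat-number term from 1 to 2, 5 to 8 and 0 to 1. Shares of all genes are given above for some of these fits as designed and for none with the term. Limma-voom called 60.7%, 17.4% and 22.8% of all genes in the first 3 comparisons.

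Single members that changed sign were mostly near 0. For Postn with leptin against vehicle (-0.01) the log2 difference was 0.0075 with RLE scaling, 0.0073 with DESeq2, 0.71 with limma-voom and 0.018 with only 2 groups, and ran from -0.82 to 0.30 over left-out libraries (-0.99 to 0.15 with the rat-number term, with reversed values of 0.038, 0.084 and 0.15). For Lox it reached 0.082 with the term. In denervation against intact BAT, Postn gave -0.20 in low-numbered rats and -0.015 to 1.05 over left-out libraries. In ablation against vehicle, Dcn gave -0.20 and Lum -0.66 with limma-voom, and Lum -0.13 with the term and gradient and -0.056 with a linear rat number. In denervation against vehicle, Sparc gave 0.0089 and Lox -0.27 with limma-voom, Dcn 0.0055 with the term, and Postn -0.61 and Fn1 -0.24 in low-numbered rats. In ablation against denervation, Lox gave -0.046 with a linear rat number. Over left-out libraries Dcn and Lum against vehicle after ablation, Col1a1 and Fn1 after denervation, and Lox between the operations also changed sign. Their ranges were -0.027 to 0.35 and -0.47 to 0.20, -0.26 to 0.084 and -0.066 to 0.23, and -0.15 to 0.36.

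With the replicate number as a block, 2 members passed for leptin against vehicle (Sparc and Lum) and 5 for ablation against intact BAT. In the other 4 comparisons 0 passed. Of all genes, 21.0%, 5.89% and 2.95% passed in the first 3 comparisons. The shares in the later comparisons are not given here, so 0 members there has no background beside it. The numbers were not taken to pair rats, since each library came from a different rat. Of 36 same-numbered pairs of libraries 24 had deviations correlated above 0.1 (median 0.20, lowest -0.34). In 21 of 72 checks a library matched its own number best among the 6 of another group. The rate by chance was not computed, so these values do not decide whether the numbers mark a pairing. Depth was 56 reads at least for Lox, and the precision of all values is limited by 6 rats a group.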
